A study of Mus musculus with 6 samples.

Results

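The cells described here are neutrophils that carried at least 1 unique molecular identifier (UMI, a tag that marks 1 captured RNA molecule) of Cxcr2, none of Siglecf, and at most 3 of the interferon-induced genes Isg15, Ifit1, Ifit3 and Rsad2 together. They were chosen by these UMI counts, from a neutrophil gate of at least 1% of a cell's UMIs in S100a8, S100a9, Csf3r, Cxcr2, Il1r2 and G0s2, with limits on genes of macrophages, T cells and antigen-presenting cells. The rule held for 1901 of 13684 gated neutrophils, out of 47794 cell barcodes in 6 libraries. The libraries came from tumours that grew in the pancreas of C57BL/6J mice, labelled wild-type, after inoculation of the KPC line, a mouse pancreatic cancer cell line. Of the 6 mice, 3 received IgG, the control antibody, and 3 received #44-anti-mVSIG4, an antibody against VSIG4, a complement receptor of macrophages. All tumours were collected 11 days after inoculation, and the labels give no antibody dose, no schedule and no mouse age. Each library is labelled as a separate mouse.

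Neutrophils leave the bone marrow, circulate briefly and enter inflamed tissue and tumours. CXCR2 is the receptor with which they follow the chemokines CXCL1, CXCL2 and CXCL5, and it also releases them from the marrow. In mouse tumours, cells rich in Cxcr2, Csf3r and the secreted protein gene Retnlg are usually placed early after arrival, and cells with Siglecf late, but time since arrival was not measured in these libraries.

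The 5 promoters printed here belong to the marker genes given with the label: the receptor genes Cxcr2 and Csf3r, Stfa2l1, Retnlg and Asprv1, whose levels are described further on. Each is the run of 250 bases before the gene's start in RefSeq on build GRCm38.p6, on the plus strand, at chr1:74153744-74153993, chr4:126024409-126024658, chr16:36156561-36156810, chr16:48872358-48872607 and chr6:86627924-86628173. Capitals mark matches, on either strand, to GAGGAA, a core read by the myeloid factor PU.1, and to TTNNGCAA, a form of the C/EBP site.

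Cxcr2: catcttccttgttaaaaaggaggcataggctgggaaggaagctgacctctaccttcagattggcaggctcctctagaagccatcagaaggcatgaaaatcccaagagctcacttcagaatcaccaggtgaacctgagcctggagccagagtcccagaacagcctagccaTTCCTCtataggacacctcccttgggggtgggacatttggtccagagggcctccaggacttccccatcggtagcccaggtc

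Csf3r: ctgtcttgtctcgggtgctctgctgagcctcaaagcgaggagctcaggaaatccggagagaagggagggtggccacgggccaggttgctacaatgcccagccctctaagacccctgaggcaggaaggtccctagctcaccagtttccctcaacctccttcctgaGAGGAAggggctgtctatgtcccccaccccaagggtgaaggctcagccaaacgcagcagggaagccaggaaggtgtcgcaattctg

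Stfa2l1: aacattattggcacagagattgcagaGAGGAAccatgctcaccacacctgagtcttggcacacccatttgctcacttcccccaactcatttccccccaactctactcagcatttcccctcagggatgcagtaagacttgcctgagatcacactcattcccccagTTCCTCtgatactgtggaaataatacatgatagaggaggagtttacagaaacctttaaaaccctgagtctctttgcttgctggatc

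Retnlg: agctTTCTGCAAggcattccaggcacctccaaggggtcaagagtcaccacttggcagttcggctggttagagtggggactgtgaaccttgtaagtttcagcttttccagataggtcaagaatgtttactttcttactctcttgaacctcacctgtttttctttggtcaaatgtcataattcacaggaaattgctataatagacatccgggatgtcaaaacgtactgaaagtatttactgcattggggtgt

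Asprv1: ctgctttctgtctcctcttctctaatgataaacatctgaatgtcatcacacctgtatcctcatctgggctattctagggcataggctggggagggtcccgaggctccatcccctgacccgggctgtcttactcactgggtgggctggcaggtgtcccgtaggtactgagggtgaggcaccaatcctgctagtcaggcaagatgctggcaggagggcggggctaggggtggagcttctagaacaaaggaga

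GAGGAA was found in 3 of the 5 promoters, at 1 place upstream of Cxcr2 and of Csf3r and at 2 places upstream of Stfa2l1. TTNNGCAA was found in 1 of 5, upstream of Retnlg, and the Asprv1 window held neither. The interferon-stimulated response element was also searched on both strands and was in none of the 5. Of 32851 RefSeq promoters of the same length, 23.3% held GAGGAA, 9.56% held TTNNGCAA and 2.98% held the interferon element. The matches do not overlap in these windows, and a match describes the letters only.

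The libraries held 26606234 to 47221033 UMIs each, and the cells of interest contributed 299923 to 1129274 UMIs per library. The median cell of the group had 1584 UMIs and 732 genes, and the median of all other gated neutrophils was 1590 UMIs. In 3 libraries (IgG 2, IgG 3 and anti-VSIG4 3) 9.74% to 48.6% of all barcodes had over 15% of their UMIs in genes that span more than 100 kb, against 0.651% to 1.47% in the other 3. Only 22 of the 1901 cells were of that kind. Cell names are running names within a library, so the 11691 names found in more than 1 library do not show shared cells.

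The label of these cells as recently recruited neutrophils was checked against its 5 markers. Levels are given as CPM: the UMIs of a gene summed over the cells of a group in 1 library, per 1000000 UMIs of that group. The cells were compared with all other gated neutrophils and with 3 neighbouring groups that each break 1 condition of the rule. These were 3137 Cxcr2-zero neutrophils, 390 Siglecf-positive neutrophils, and 3839 interferon-high neutrophils with at least 4 UMIs of the interferon genes. All of these comparisons share the same cells. Because the groups were cut from the same counts, every difference between them is a description with no test. It was called when the median log2 ratio over libraries was at least 1 in size and had the same sign in 6 of 6 libraries.

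Cxcr2 itself, which the rule used, stood at 1319, 977 and 980 CPM in the IgG libraries and at 1129, 1243 and 932 CPM in the anti-VSIG4 libraries. Csf3r, the receptor for granulocyte colony-stimulating factor and part of the gate, averaged 930 CPM (SD 294, n = 6) in the cells, 958 CPM in all other gated neutrophils and 1254 CPM in the interferon-high neutrophils. Neither gene can support the label, since both chose the cells.

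Stfa2l1, a stefin A gene that encodes a cysteine protease inhibitor, stood at 261, 81.1 and 120 CPM in the IgG libraries and at 494, 152 and 129 CPM in the anti-VSIG4 libraries. Its mean of 206 CPM (SD 154, n = 6) compared with 111 CPM in Cxcr2-zero, 216 CPM in all other gated and 366 CPM in interferon-high neutrophils. The gene was therefore higher than in Cxcr2-zero cells in 6 of 6 libraries, and lower than in interferon-high cells in 6 of 6. Stefin A genes are near-identical copies, so the assignment of reads to Stfa2l1 is uncertain. The sum over the 7 measured stefin A genes ranged from 134.7 to 694 CPM in the cells, from 59.4 to 376 CPM in Cxcr2-zero neutrophils and from 262 to 827 CPM in interferon-high neutrophils.

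Retnlg, which encodes a resistin-like secreted protein, stood at 341, 177 and 1194 CPM in the IgG libraries and at 698, 576 and 1063 CPM in the anti-VSIG4 libraries. Libraries of the same antibody differed more in this gene than the antibodies did. The mean was 675 CPM (SD 397, n = 6) in the cells, 414 CPM in Cxcr2-zero, 45.6 CPM in Siglecf-positive and 1100 CPM in interferon-high neutrophils. Asprv1, a retroviral-like aspartic protease, showed the same order at 336 CPM (SD 82.0, n = 6), 200 CPM, 61.4 CPM and 682 CPM.

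Against all other gated neutrophils together, the median log2 ratio was 0.07 for Retnlg, -0.18 for Stfa2l1 and -0.29 for Asprv1, so these 3 markers did not single out the cells. Their means were above those of Cxcr2-zero and Siglecf-positive neutrophils but highest in interferon-high neutrophils. The label was thus borne out only in part, and the cells are named by their rule as Cxcr2-positive, Siglecf-negative, interferon-low neutrophils, or the selected neutrophils in short. A Cxcr2 UMI alone does not separate them: both the Siglecf-positive and the interferon-high group carry one by definition, as did 39.0% of all other gated neutrophils.

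**Figure D1:**
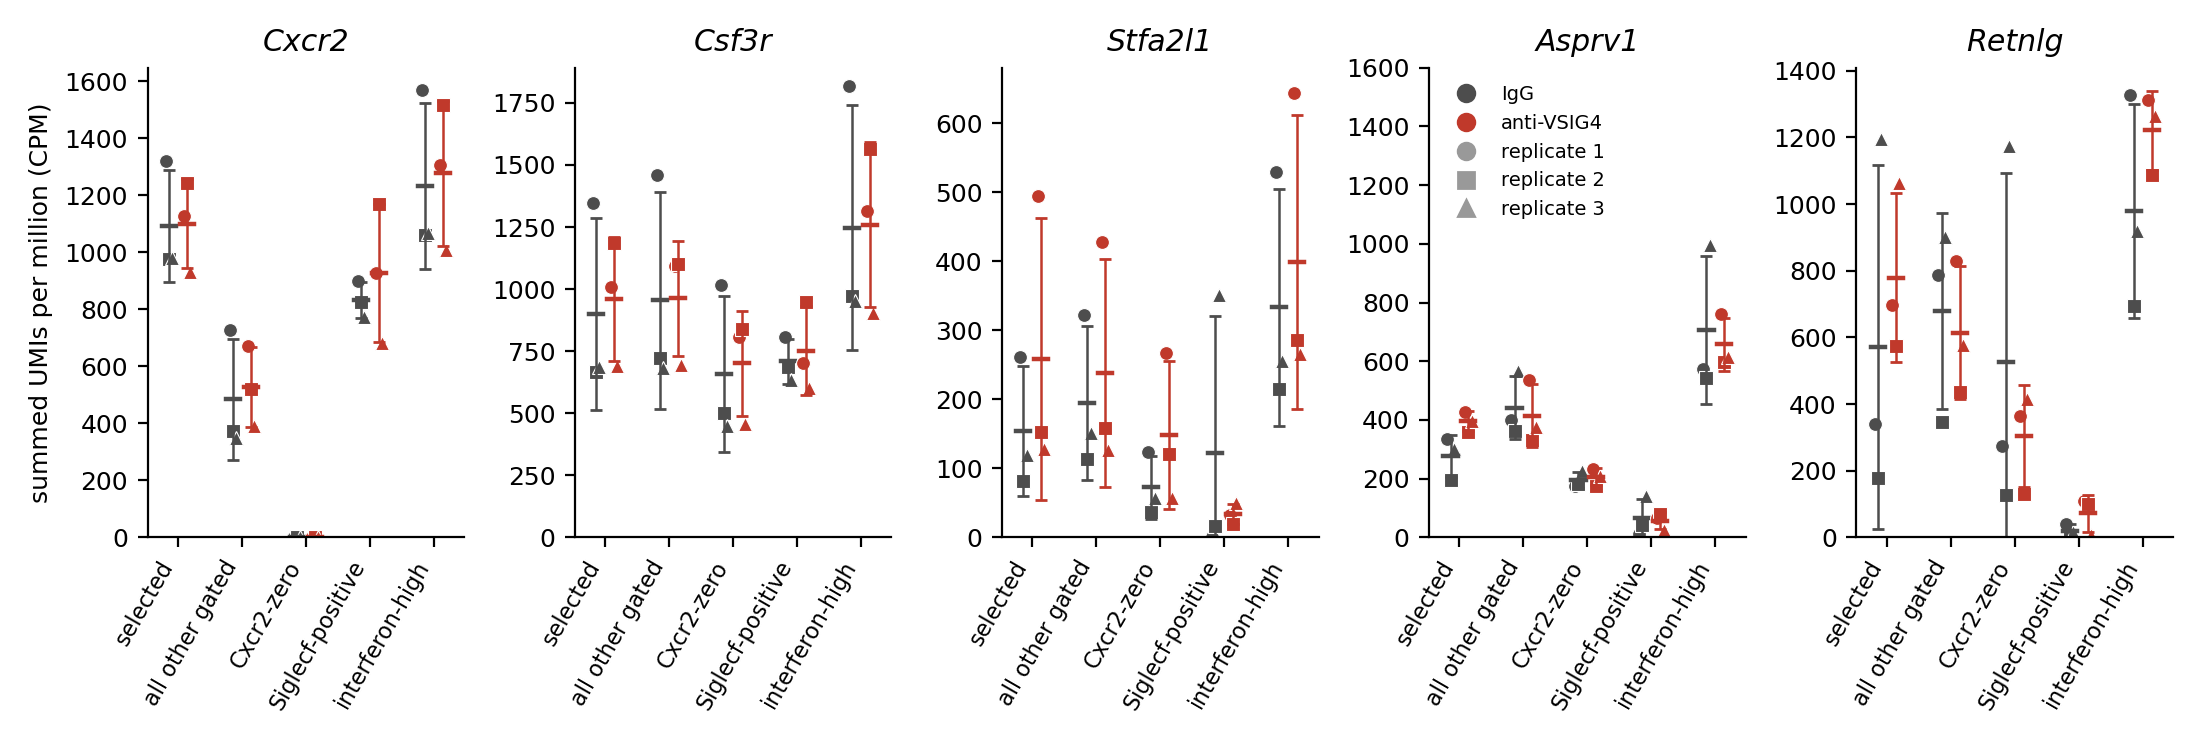
Levels (CPM, linear axes from 0) of 5 marker genes in 5 groups of gated neutrophils. Each symbol is 1 library (IgG grey, anti-VSIG4 red), horizontal lines are means over 3 libraries and vertical lines their SD, clipped at 0. Stfa2l1, Asprv1 and Retnlg in the selected cells lie on average above the Cxcr2-zero and below the interferon-high neutrophils.

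Genes of immature neutrophils were not all low by summed CPM. The 4 azurophil granule genes Mpo, Elane, Ctsg and Prtn3 summed to 20.7 to 63.1 CPM per library. Mpo and Elane, azurophil granule enzymes made in the marrow, were at 0 in 5 libraries, and in the sixth, anti-VSIG4 3, each reached 1.5 CPM. Camp, a specific granule peptide, ranged from 5.25 to 630 CPM and averaged 213 CPM (SD 262, n = 6), with IgG 3, anti-VSIG4 1 and anti-VSIG4 3 high and the other libraries at 7.76 CPM or less. Ly6g, the surface antigen commonly used to stain mouse neutrophils, averaged 6.20 CPM (SD 3.72, n = 6), a level at which its differences cannot be read.

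A Cxcr2 UMI depends on depth, and free RNA can place one in a cell that does not express the gene. With every cell thinned to 1000 UMIs, 70.4% to 84.4% of the selected neutrophils per library still held one. T cells, gated by at least 3 UMIs of T cell receptor genes and expected to lack Cxcr2, held one in 1.02% to 4.29% of cells after thinning and in 4.24% to 21.9% before. The median T cell had 3715 UMIs. Thinned shares with a UMI were 10.4% (SD 4.09, n = 6) for Retnlg and 8.93% (SD 5.30, n = 6) for Stfa2l1 in the selected neutrophils, against 1.65% and 0.621% in T cells. Without thinning these were 13.3% and 11.6% in the selected neutrophils and 6.84% and 3.04% in T cells. In all other gated neutrophils the thinned shares were higher than in the selected ones, at 15.5% for Retnlg and 9.78% for Stfa2l1. They were 27.7% and 16.3% in interferon-high, 6.09% and 5.48% in Cxcr2-zero, and 2.98% and 3.39% in Siglecf-positive neutrophils.

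Cells near the limits of the rule were looked at apart. Cells with 1, 2 and at least 3 Cxcr2 UMIs numbered 969, 480 and 452, and their mean Lrg1 levels were 217, 222 and 446 CPM. Retnlg averaged 1044 CPM in the 248 cells with an interferon sum of 3 and 1369 CPM in the 215 cells with a sum of 4, just outside. Isg20, an interferon-induced exonuclease, averaged 193 CPM and 209 CPM in the same classes. Retnlg was 61.5 CPM in the 281 cells kept out by a single Siglecf UMI. At the gate, S100a8 averaged 992 CPM in 71 cells with 1% to 1.2% of UMIs in the gate genes and 880 CPM in 67 cells just below, at 0.8% to 1%.

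The Cxcr2-zero neutrophils differ from the selected ones, by the rule, only in the Cxcr2 UMI, and few genes were far apart. Of 5162 genes, 5 were called higher (0.0969%) and 7 lower (0.136%) in the selected cells. Lrg1, a leucine-rich secreted glycoprotein of neutrophil granules, stood at 373, 90.9 and 213 CPM in the IgG libraries and at 453, 281 and 251 CPM in the anti-VSIG4 libraries. Its mean was 277 CPM (SD 126, n = 6) against 112 CPM, a median log2 ratio of 1.43 that ranged from 0.75 to 1.52. Wfdc17, a small secreted protein with a whey acidic domain, averaged 572 CPM against 231 CPM (log2 1.16), and Sema4a, a membrane semaphorin, 73.6 against 33.7 CPM (log2 1.02). The smallest gap in any library was 0.80 on the log2 scale for Sema4a and 1.04 for Wfdc17. Fnip2, a folliculin partner in nutrient sensing, was lower at 44.7 against 87.3 CPM (log2 -1.02).

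Smaller differences were counted by list. Over all 5162 genes, 6.37% were higher and 7.46% lower in 6 of 6 libraries, with a median log2 ratio of -0.05. Interferon response genes, although both groups were limited in them, were higher in 6 of 6 for 6 of 12 used and none lower (median 0.34). Of 10 chemoattractant receptor genes used, 7 were higher in 6 of 6 and none lower (median 0.29). Fpr1, the receptor for formyl peptides, averaged 94.6 CPM against 60.4 CPM, and Ccr1, a chemokine receptor, 425 against 317 CPM. Of 13 adhesion genes 7 were higher in 6 of 6 (median 0.24), among them the selectin ligand gene Selplg at 364 against 233 CPM.

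Of 18 innate receptor genes 18 were above 0 by the median and 11 were higher in 6 of 6 libraries (median 0.39). Cd14, the co-receptor for lipopolysaccharide, averaged 2338 CPM (SD 795, n = 6) against 1773 CPM, and Trem1, an amplifier of inflammatory signals, 973 (SD 153, n = 6) against 730 CPM. Cd33, an inhibitory lectin, averaged 130.2 against 84.8 CPM. Il1b, the inflammatory cytokine, stood at 18963, 13066 and 16104 CPM in the IgG libraries and at 21659.9, 19163 and 19449 CPM in the anti-VSIG4 libraries, against a Cxcr2-zero mean of 13714 CPM (log2 0.41). The circadian and survival factor gene Nfil3 averaged 336 against 208 CPM (log2 0.70).

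Genes of low oxygen and of the tumour-adapted state were lower in the selected cells than in Cxcr2-zero neutrophils. Of 11 hypoxia genes 6 were lower and 1 higher in 6 of 6 libraries (median -0.41), with Higd1a, a mitochondrial protein induced by low oxygen, at 237 (SD 23.5, n = 6) against 377 CPM. Of 27 tumour-adapted genes 9 were lower and 2 higher in 6 of 6 (median -0.20). The chemokine gene Ccl3 averaged 3430 CPM (SD 1002, n = 6) against 4915 CPM (log2 -0.53), and Hilpda, a lipid droplet protein, 1018 CPM (SD 268, n = 6) against 1552 CPM (log2 -0.65). Glycolysis genes were lower in 6 of 6 for 5 of 16 (median -0.13), with Ldha, lactate dehydrogenase, at 739 against 949 CPM. Depth also differed, with a median of 1420 UMIs in Cxcr2-zero cells, and with only cells of 1000 to 2000 UMIs the 12 calls became 30.

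The interferon-high neutrophils had the opposite relation to the selected cells for most of these genes. Of 4981 genes, 156 were called higher (3.13%) and 98 lower (1.97%) in the selected cells, and the median of all genes was 0.24. That interferon genes were lower follows from the rule. Outside them, Wfdc17 averaged 572 against 1276 CPM (log2 -1.18). Lrg1 averaged 277 against 526 CPM (log2 -0.89).

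Innate receptors were lower in 6 of 6 libraries for 11 of 19 genes (median -0.33), where 10.5% of all genes were. Higher in the selected cells were Ccl3 at 3430 against 1693 CPM (log2 1.11), Ltc4s, which makes cysteinyl leukotrienes, at 390 against 157 CPM (log2 1.31), and the cell death gene Bax at 160 against 81.9 CPM (log2 1.09). Tumour-adapted genes were higher in 6 of 6 for 10 of 27 (median 0.30) and hypoxia genes for 4 of 10 (median 0.45), against 26.1% of all genes. The selected neutrophils thus held a middle position, between Cxcr2-zero and interferon-high neutrophils, in Lrg1, Wfdc17, Stfa2l1, Hilpda and Ccl3.

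**Figure D2:**
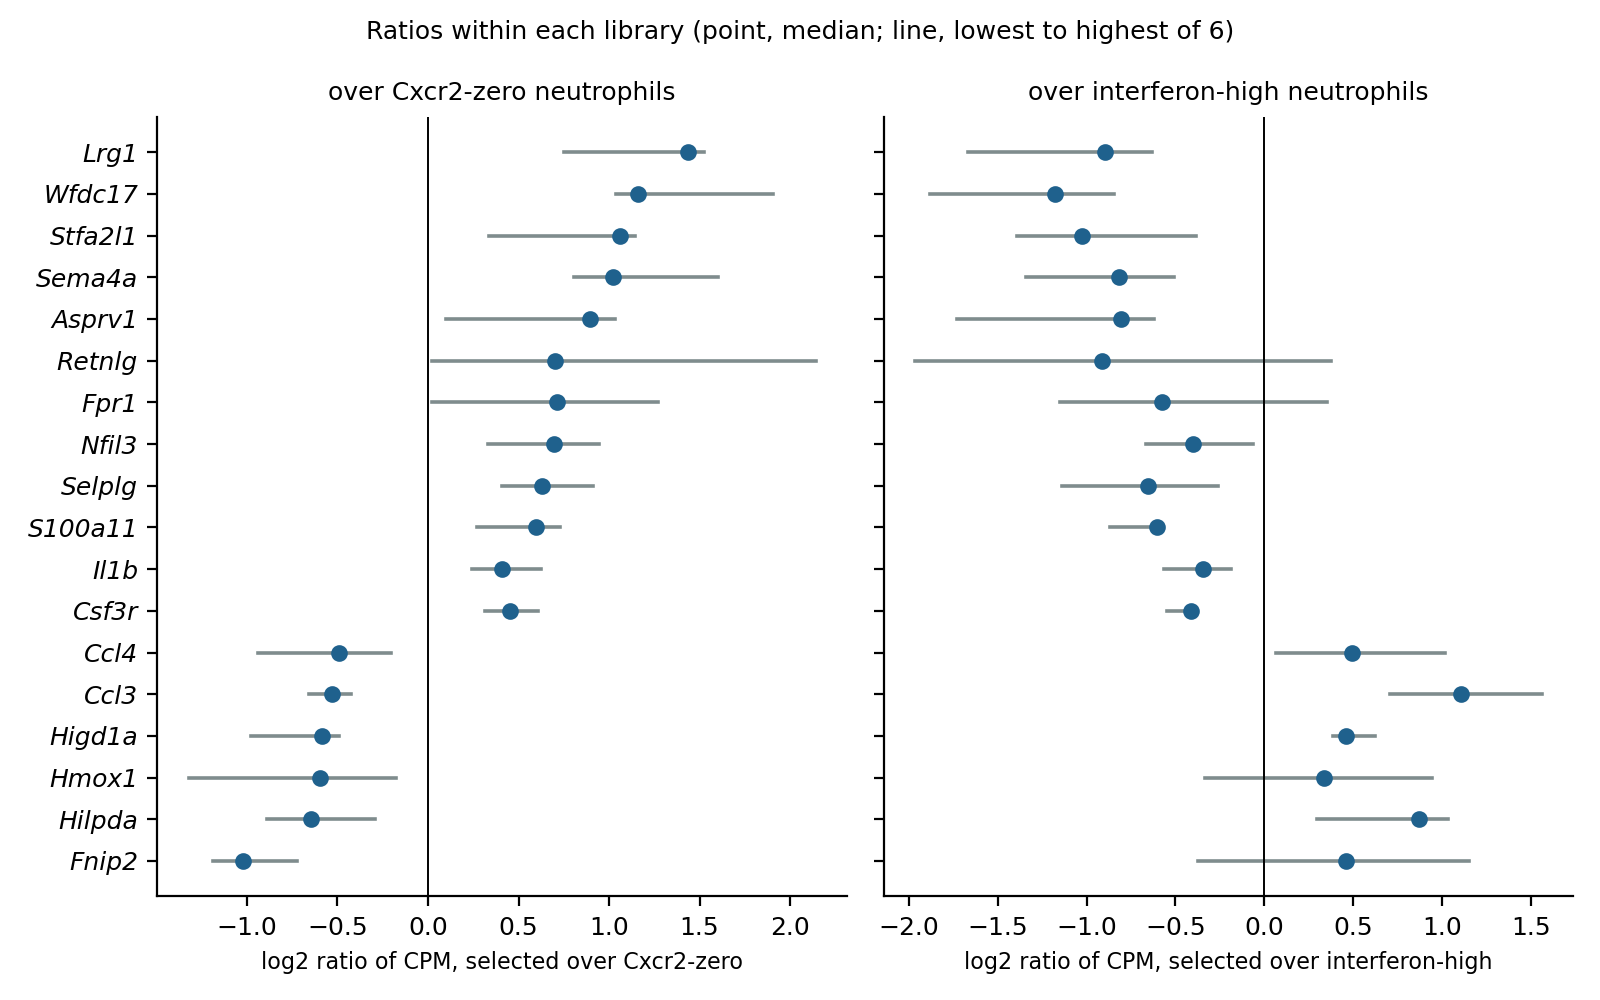
Log2 ratio of CPM in selected neutrophils over Cxcr2-zero (left) and over interferon-high neutrophils (right) for named genes. Points are medians of 6 within-library ratios and lines run from the lowest to the highest library. The genes from Lrg1 to Csf3r lie right of 0 on the left panel and have medians left of 0 on the right panel, and the lower 6 genes show the reverse.

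The Siglecf-positive neutrophils, with 26 to 102 cells per library and a median of 2014 UMIs, were compared over the 864 genes with at least 200 CPM in either group. In the selected cells 13 genes were called higher (1.5%) and none lower. Besides Retnlg and Asprv1 these included Lcn2, an iron-scavenging granule protein, at 340 (SD 263, n = 6) against 91.5 CPM. Slpi, an inhibitor of elastase, averaged 1172 (SD 252, n = 6) against 461 CPM, and S100a6, a calcium-binding protein, 1693 (SD 547, n = 6) against 702 CPM. The chemokine genes Ccl6 and Cxcl3 averaged 1302 against 548 CPM and 921 against 452 CPM. Of 22 tumour-adapted genes used, 5 were higher and 1 lower in 6 of 6 libraries (median 0.23). Over all 864 genes, 11.8% were higher and 13.2% lower in 6 of 6. Runx1, a transcription factor of blood cells, was lower in 6 of 6 libraries at 439 against 602 CPM (log2 -0.50), without reaching the limit for a call.

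Against all 11783 other gated neutrophils, no gene of 4971 was called higher (0%) and 31 were called lower (0.624%), interferon-induced genes among them, the class that the rule used. Isg20 averaged 144 (SD 46.6, n = 6) against 442 CPM (log2 -1.69), the guanylate-binding protein gene Gbp2 122 against 389 CPM (log2 -1.66), and the chemokine gene Cxcl10 85.6 against 258 CPM (log2 -1.91). Outside the interferon list, class I antigen presentation genes were lower in 6 of 6 libraries for 7 of 13 (median -0.37), where 4.08% of all genes were. Against Cxcr2-zero neutrophils, held to the same interferon limit, 0 of 13 were lower and 1 was higher in 6 of 6 (median 0.04). How far the interferon limit of the rule set the difference in class I genes was not tested. Cd274, which encodes the checkpoint ligand PD-L1 and is itself induced by interferon, averaged 445 (SD 80.7, n = 6) against 663 CPM (log2 -0.51) and was lower in 6 of 6. Small differences upward in 6 of 6, where 5.09% of genes were, included the gelatinase gene Mmp9 at 1515 against 1290 CPM. Cd177, a neutrophil adhesion protein, was another, at 507 against 395 CPM. Tumour-adapted genes were higher in 6 of 6 for 2 of 27 and lower for 2 (median 0.02). Of 11 hypoxia genes 1 was higher and 1 lower in 6 of 6 (median 0.08).

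The selected neutrophils were not uniform. With cells thinned to 1000 UMIs, 353 held at least 2 UMIs of Retnlg, Stfa2l1 and Asprv1 together, 187 held 1 and 1361 held none. The median depth was 1555 UMIs with markers and 1611 without. Cells with at least 2 marker UMIs made up 13.9% of 158 cells in IgG 3 and 9.29% of 312 in IgG 2. In anti-VSIG4 1 they made up 26.3% of 609. Ratios in the smaller libraries therefore rest on few cells. Among 884 genes with at least 200 CPM in either class, 59 were called higher (6.67%) and 119 lower (13.5%) in the cells with markers. The split was made after the data were seen and uses genes of the same cells, so it too is a description.

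Among the genes higher with markers, Lcn2 averaged 1250 (SD 1289, n = 6) against 119 CPM, Pglyrp1, a bactericidal protein that binds peptidoglycan, 1247 (SD 806, n = 6) against 183 CPM, and Slpi 3343 (SD 903, n = 6) against 635 CPM. Osm, the cytokine oncostatin M, averaged 1462 (SD 336, n = 6) against 362 CPM (log2 2.23). Lrg1 averaged 692 against 146 CPM and Wfdc17 1364 against 337 CPM. By list, interferon response genes were higher in 6 of 6 libraries for 4 of 4 used (median 0.99), innate receptors for 7 of 12 (median 0.72) and specific granule genes for 2 of 6 (median 0.87), where 20.2% of all genes were higher and 31.1% lower. Camp, a specific granule gene, was lower in 4 of 6 libraries. Lcn2, Slpi and Lrg1 also separated the whole group from Siglecf-positive neutrophils.

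The cells without marker UMIs had more Ltc4s, at 471 (SD 144, n = 6) against 29.9 CPM (log2 -4.15). Other genes lower in the cells with markers were Cox7a2, a subunit of cytochrome c oxidase, with 805 CPM without and 211 CPM with markers, Snrpg, a spliceosome protein, with 502 and 119 CPM, and Polr2f, a subunit of RNA polymerase II, with 281 and 75.8 CPM. Cxcr2 itself averaged 1321 CPM with markers and 1014 CPM without, higher in 5 of 6 libraries.

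**Figure D3:**
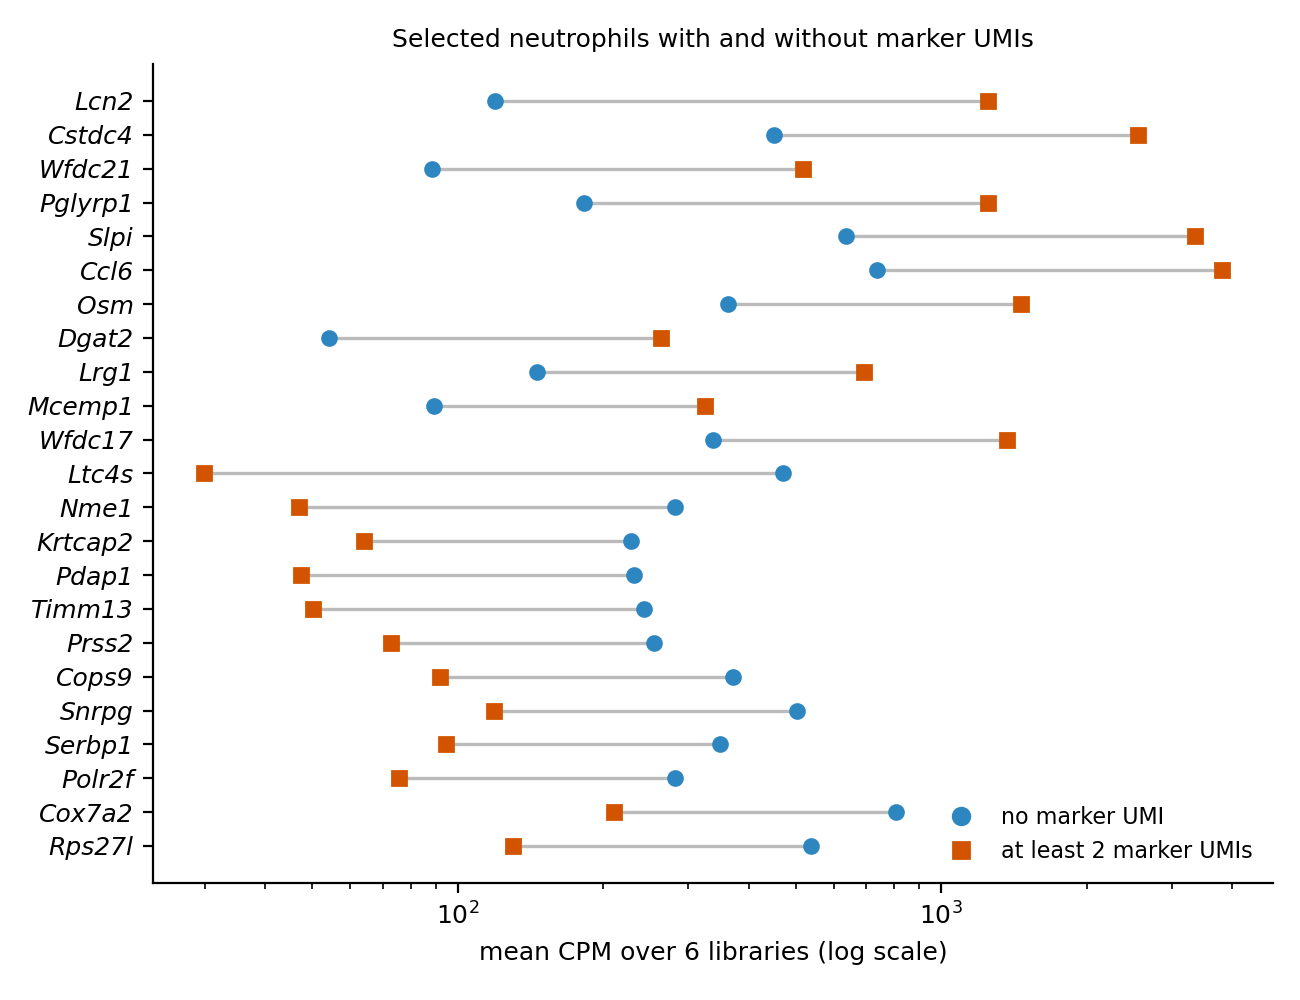
Mean CPM over 6 libraries (log scale) of named genes that differ most between selected neutrophils with at least 2 marker UMIs (orange squares) and with none (blue circles). The upper genes lie higher in the cells with marker UMIs, from Lcn2 at 1250 against 119 CPM, and Ltc4s lies lower at 29.9 against 471 CPM.

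Whether the antibody changed the number of these cells was asked by their share among gated neutrophils. The share was 12.3%, 11.1% and 10.8% in the IgG libraries and 17.4%, 19.1% and 12.8% in the anti-VSIG4 libraries. The mean was 11.4% (SD 0.790, n = 3) against 16.4% (SD 3.25, n = 3), a difference of 4.98 percentage points. The groups did not overlap, and the two-sided exact permutation p was 0.1, the smallest that 3 against 3 libraries can give, so the difference cannot pass a 0.05 threshold. Fewer cells of a type in the tissue and fewer of them captured cannot be told apart in a share.

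Thinning to 1000 UMIs gave 13.4%, 11.6% and 11.7% against 19.2%, 19.9% and 12.4%, and the groups then overlapped (exact permutation p = 0.2). Of all barcodes the cells made up 3.63%, 3.80% and 1.65% against 6.39%, 3.54% and 4.87% (exact permutation p = 0.3). The kind of library moved with the share: the difference was 5.90 points among the 3 libraries with few long-gene barcodes (1 IgG, 2 anti-VSIG4) and 1.81 points among the other 3 (2 IgG, 1 anti-VSIG4). By condition, the interferon limit separated the groups, with 39.6%, 41.6% and 42.4% of gated neutrophils at or below it under IgG and 43.1%, 58.1% and 44.3% under anti-VSIG4 (exact permutation p = 0.1). A Cxcr2 UMI was found in 52.5%, 40.6% and 38.6% against 56.8%, 47.1% and 43.6% of gated neutrophils, which overlapped (exact permutation p = 0.5).

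**Figure D4:**
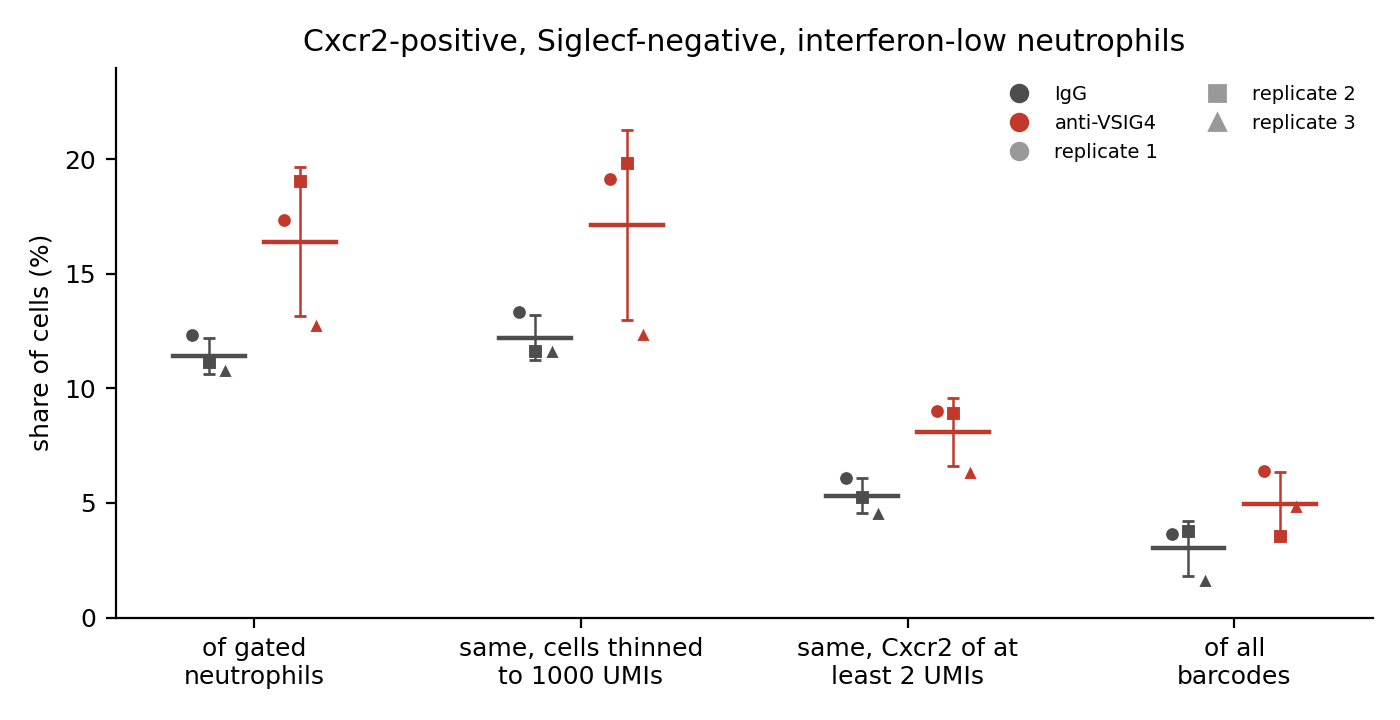
Share of Cxcr2-positive, Siglecf-negative, interferon-low neutrophils (%, axis from 0) by library under 4 definitions. Symbols are libraries, horizontal lines means and vertical lines SD of 3 libraries. As a share of gated neutrophils, IgG lies at 10.8% to 12.3% and anti-VSIG4 at 12.8% to 19.1%, and the groups overlap after thinning and as a share of all barcodes.

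Gene expression within the cells was compared between the antibodies on UMIs summed per library, with edgeR's quasi-likelihood test and Benjamini-Hochberg adjustment over 5006 genes. One gene rose with anti-VSIG4 and none fell (1 of 5006, 0.02%). Car4, a membrane-anchored carbonic anhydrase that hydrates carbon dioxide, stood at 75.0, 68.1 and 56.7 CPM in the IgG libraries and at 244, 279 and 235 CPM in the anti-VSIG4 libraries. Every anti-VSIG4 library was over 3 times as high as any IgG library, with no overlap. The fitted log2 change was 2.03 (SE 0.24, edgeR adjusted p = 0.00421). With the kind of library as a covariate, edgeR called 14 genes higher (0.28%) and 7 lower (0.14%), Car4 again among them.

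Car4 kept its direction and size in each way of processing tried, from 1.96 to 2.23 on the log2 scale, and within both kinds of library, at 1.79 and 1.89. It missed the threshold in 2 of 16 alternatives. These were a 2% gate (2.23, edgeR adjusted p = 0.0859) and a minimum of 2 Cxcr2 UMIs (1.99, edgeR adjusted p = 0.141). Both used fewer cells, as did the fits with a library left out, in which Car4 passed. The reason for the misses was not tested. After thinning, a Car4 UMI was in 4.62%, 3.53% and 2.53% of selected cells under IgG and in 9.20%, 11.3% and 10.6% under anti-VSIG4. The mean over all libraries was 6.95% (SD 3.83, n = 6), and in T cells it was 0.615%. Without thinning these 2 means were 8.75% and 3.02%.

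Car4 was also higher under anti-VSIG4 outside these cells. In all other gated neutrophils Car4 stood at 45.7, 59.4 and 70.4 CPM under IgG and at 140, 196 and 147 CPM under anti-VSIG4, again without overlap, a log2 change of 1.53 (edgeR adjusted p = 0.175). DESeq2 called 4 genes higher (0.0386%) and 2 lower (0.0193%) of 10376 in those cells, Car4 among the former. The difference between the 2 changes was 0.51 on the log2 scale (edgeR interaction test, adjusted p = 0.921). In Cxcr2-zero neutrophils it stood at 77.1, 78.4 and 110 against 259, 263 and 197 CPM, and in interferon-high neutrophils it was low at 27.0, 47.1 and 37.5 against 74.1, 46.6 and 75.7 CPM, where the groups overlapped. In Siglecf-positive neutrophils it stood at 26.5, 22.0 and 35.2 against 229.6, 279.9 and 311 CPM.

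**Figure D5:**
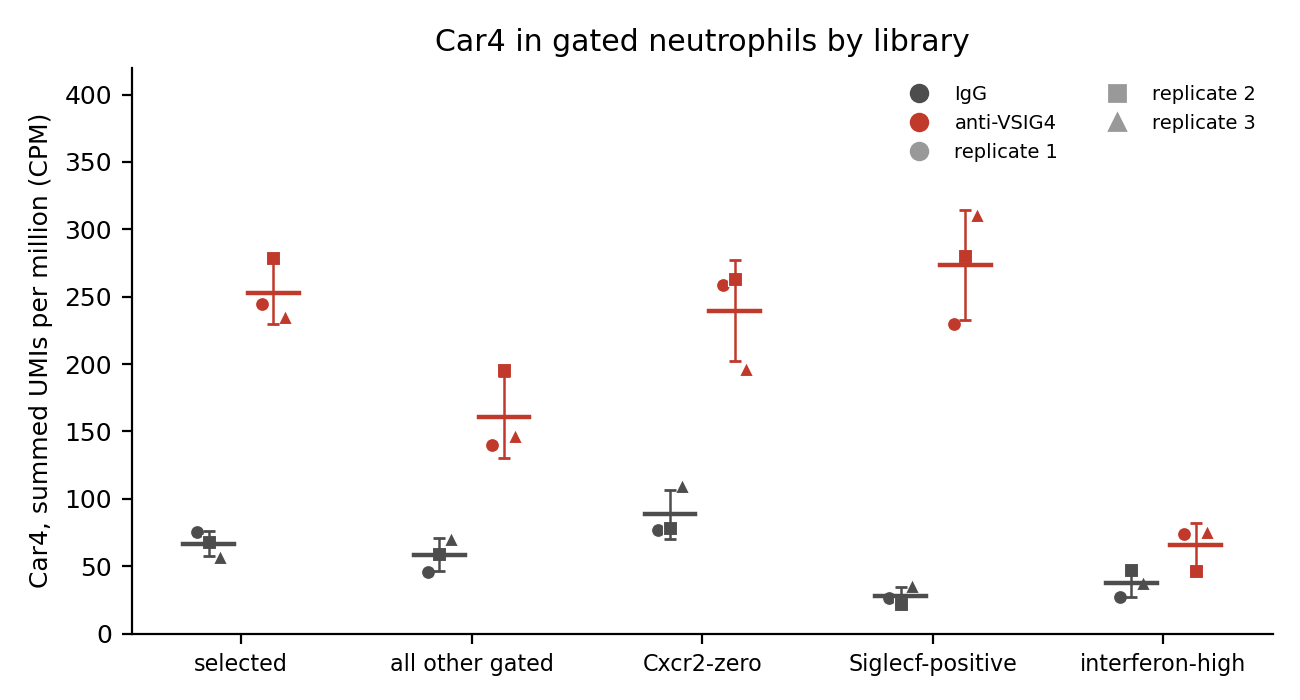
Car4 level (CPM, axis from 0) by library in 5 groups of gated neutrophils. Symbols are libraries (IgG grey, anti-VSIG4 red), horizontal lines means and vertical lines SD of 3 libraries. In the selected cells IgG lies at 56.7 to 75.0 and anti-VSIG4 at 235 to 279 CPM, and the antibodies are also apart in the other gated, Cxcr2-zero and Siglecf-positive groups.

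None of the 5 markers passed the treatment test in the selected cells. The fitted log2 changes were 0.13 (SE 0.19) for Cxcr2, 0.94 (SE 0.66) for Stfa2l1, 0.65 (SE 0.24) for Asprv1, 0.21 (SE 0.28) for Csf3r and 0.58 (SE 0.79) for Retnlg. Asprv1 came nearest, at 334, 196 and 300.1 CPM under IgG and 428, 360 and 398 CPM under anti-VSIG4 (edgeR adjusted p = 0.713), and the gap between its groups was small. The share of cells with at least 2 UMIs of Retnlg, Stfa2l1 and Asprv1 was 16.9%, 9.29% and 13.9% against 26.3%, 16.5% and 18.1%, which overlapped (exact permutation p = 0.2).

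The gene lists by role held no other gene past the threshold. Values above 0 were found for 10 of 11 chemoattractant receptors (median log2 change 0.27), 10 of 13 adhesion genes (0.37), 7 of 7 specific granule genes (0.81), 16 of 18 innate receptors (0.28) and 10 of 11 hypoxia genes (0.47), where 2486 of all 5006 genes were above 0. Overlap was judged on CPM without the library scaling used in the fit. Groups without overlap were found for 12.7% of all genes, 3.04% upward and 9.63% downward. Class I antigen presentation genes had values below 0 for 11 of 13 (median -0.20), and for 4 of the 13 the groups were apart, as for 9.63% of all genes in that direction.

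The other gated neutrophils had the same lists at 14 of 14 (0.26), 12 of 14 (0.23), 8 of 9 (0.76), 18 of 21 (0.20) and 9 of 13 (0.20), and class I genes below 0 for 11 of 13 (-0.13). Both cell groups come from the same 6 mice. In simulated counts for the 5006 genes, 100 genes were changed at each of 2 sizes. The test found 85% of 4-fold but 20% of 2-fold changes there, with 8 false calls. With fewer changed genes the adjustment is stricter, so these shares need not hold for the real counts. The list medians were smaller than a 2-fold change, a size that the test mostly missed even in the simulation, so it cannot decide on them.

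Hspa1b, which encodes an inducible heat shock protein, is named because an alternative tool called it. It stood at 199, 412 and 317 CPM under IgG and at 40.7, 31.5 and 114 CPM under anti-VSIG4. DESeq2 gave an adjusted p of 0.000198 (log2 -2.18), while edgeR gave -2.17 (SE 0.47, adjusted p = 0.566). The groups did not overlap, and both tools gave nearly the same size. Outside the reported fit, edgeR also called Hspa1b with no filter on low counts, with a block on replicate number and with library kind as covariate. It was called too on thinned cells and without anti-VSIG4 3, and in no other edgeR alternative.

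A treatment effect that differed between the selected cells and the other gated neutrophils was found for 4 of 8493 genes (0.0471%, edgeR interaction test with library as block). Upp1, a pyrimidine salvage enzyme, stood at 1076, 907 and 747 CPM under IgG and at 2128, 1503 and 1428 CPM under anti-VSIG4 in the selected cells. Its log2 change was 1.02 (SE 0.22, edgeR adjusted p = 0.566) in them and 0.54 in the others. S100a6 stood at 1699, 1277 and 1390 against 2127, 2541 and 1126 CPM, with log2 changes of 0.52 in the selected cells and -0.06 in the others. Neither gene had changed past the threshold in the reported fit of the selected cells alone. Upp1 passed in that comparison with no filter on low counts, a block on replicate number, library kind as covariate, and without IgG 1. It passed in no other alternative, and S100a6 passed in none. Jarid2 and Mettl26 were the remaining genes and are given in the closing section.

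RNA of other cell types was measured in the selected cells through marker lists, since free RNA and doublets can carry it. The 10 macrophage markers summed to 487 to 1355 CPM under IgG and 1210 to 1970 CPM under anti-VSIG4, which overlapped. The 8 markers of antigen-presenting cells, 3 of which the gate limits, summed to 1044 to 1927 CPM against 2085 to 2910 CPM, without overlap. B cell markers were at 127 to 140 CPM against 70.9 to 91.2 CPM and haemoglobin genes at 14.6 to 44.0 CPM against 47.9 to 1468 CPM, also without overlap.

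Eosinophil markers, of which 3 of 6 were at 0 in every library, summed to at most 6.49 CPM under IgG and to 7.48 to 13.1 CPM under anti-VSIG4. T cell markers (47.0 to 135 against 59.8 to 226 CPM), monocyte markers (238 to 585 against 311 to 702 CPM), tumour cell keratins and related genes (150.0 to 333 against 133 to 406 CPM) and acinar enzymes (486 to 795 against 121 to 533 CPM) overlapped. In T cells, Car4 stood at 3.8, 2.8 and 2.6 CPM under IgG and at 13.2, 10.4 and 5.8 CPM under anti-VSIG4, also without overlap. The part of foreign RNA in the differences between antibodies was not tested.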

How the data were processed

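Per the labels, tumour cells were captured on the DNBelab C platform and sequenced on DNBSEQ-T7. The submitters' processing notes name STAR, PISA (1.0) and Seurat (4.11). Genome build and cell filter: not given in the sources used here. The deposited values are raw UMI counts per gene and barcode, as the authors left them: whole numbers, with at least 1000 UMIs in each barcode, for 29781 genes in any library and 20468 in all.

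The neutrophil gate, in UMIs of each cell, required S100a8, S100a9, Csf3r, Cxcr2, Il1r2 and G0s2 to make up at least 1%, C1qa, C1qb and C1qc to sum to at most 3, Cd3d, Cd3e, Cd3g and Trac to at most 1, and Cd74, H2-Aa and H2-Ab1 to less than 0.5%. The 21 genes of the rule were left out of calls between cell groups. No doublet caller was run. The cells, gene lists and comparisons were chosen with earlier results of these data known.

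UMIs were summed per library over the cells of each group. CPM divides by the group's total, ratios used a prior of 1 CPM, and genes needed a mean of 20 CPM in either group (200 CPM for the Siglecf-positive group and the marker split). Treatment was tested with edgeR 4.0.16 (TMM, filterByExpr, robust quasi-likelihood fit, adjusted p under 0.05) in R 4.3.3, with DESeq2 1.42.0 as an alternative, and tested on simulated data. Shares were compared by two-sided exact permutation over libraries (scipy 1.17.1). The p-values measure the spread between 6 mice.

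Named were the 5 markers, up to 12 called genes per direction with at least 50 CPM and genes from 36 lists by role. Genes of the marker split, Upp1, S100a6, Jarid2, Mettl26 and Hspa1b were named after their values were seen. Thinning drew 1000 UMIs per cell with a fixed seed. Other gates, filters, scalings, a block on replicate number and libraries left out were tried. A gene that the rule would name is not reported here.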

Additional observations from a re-analysis of the deposited data

Results flagged for a closer look

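For 4 genes the antibody's effect differed between the selected neutrophils and the other gated neutrophils by a test of that difference, and each had the larger log2 change in the selected cells. For Upp1 the difference was 0.497 on the log2 scale (edgeR interaction test, adjusted p = 0.04), and it passed in 3 of 9 alternatives. For S100a6 it was 0.544 (edgeR adjusted p = 0.0374), and passed in 6 of 9. Within the libraries with many long-gene barcodes the log2 change of S100a6 was -0.24 in the selected cells and -0.57 in the others. For Jarid2, a chromatin gene, it was 0.558 (edgeR adjusted p = 0.0374) and passed in 4 of 9. Jarid2 stood at 370, 925 and 1334 CPM under IgG and at 742, 778 and 1446 CPM under anti-VSIG4, lowest where long-gene barcodes were few. For Mettl26, a little-studied gene, it was 2.77 (edgeR adjusted p = 0.0374), passed in 4 of 9, and its levels were only 2.59, 11.4 and 3.33 CPM under IgG and 17.7, 23.7 and 46.4 CPM under anti-VSIG4.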

How the results depend on the processing

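The count of genes that differed by antibody in the selected cells was 1 in the reported fit. It was 2 with DESeq2, 27 with no filter on low counts, 21 with the kind of library as a covariate (14 higher, 7 lower), 0 with a 2% gate, 0 with at least 2 Cxcr2 UMIs and 2 with the rule on thinned cells. Leaving out a library gave 1 to 11 genes (11 without IgG 1, 3 without IgG 2, 5 without anti-VSIG4 3), and Car4 was among them each time. With the replicate number as a block it was 17 (15 higher, 2 lower). Same-numbered libraries correlated at 0.24, -0.11 and 0.23, and not every library correlated best with its own number. These correlations were taken after the mean of the 3 libraries of each antibody was subtracted. They can neither show nor exclude that the numbers pair the mice. In other gated neutrophils no gene passed with edgeR (554 of 10376 at an unadjusted p under 0.05), 6 passed with DESeq2, and 0 to 1 with a library left out. The 4 genes whose effect differed between the cell groups became 2 with a 2% gate and 8 with no filter. With a library left out the count was 1 to 9 (1 without IgG 1, 9 without IgG 2). Without IgG 1 the gene called was Asprv1, and none of the 4 passed (edgeR interaction test, adjusted p of 0.182 to 0.304). The share of the cells kept its direction in 14 alternatives, from 1.81 to 7.70 points, with exact permutation p of 0.1 to 0.3. It was 3.65 to 6.79 with a library left out. The difference in gated neutrophils among all barcodes, 4.89 points (exact permutation p = 0.5), was -0.609 without IgG 3, and -0.609 to 11.2 with a library left out. The 31 genes called against all other gated neutrophils became 16 on thinned cells and 12, 13 and 254 against the Cxcr2-zero, Siglecf-positive and interferon-high groups. The 12 of the Cxcr2-zero comparison became 30 in cells of 1000 to 2000 UMIs, 25 on thinned cells and 17 to 26 with a library left out, and the 13 of the Siglecf-positive comparison 11 to 21. The cause of these changes was not tested. The library with the fewest of the cells held 158.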
